A study of Homo sapiens with 8 samples.

Results

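Messenger RNA of 10 genes for the core glycolytic enzymes was compared between Panc 10.05 cells carrying an ELAPOR1 transgene and Panc 10.05 control cells. The genes were taken by symbol, in the order of the pathway, as GPI, ALDOA, ALDOC, TPI1, GAPDH, PGK1, PGAM1, ENO1, ENO2 and PKM, and are 10 of the 58870 genes in the count table. They cover the steps from glucose 6-phosphate to pyruvate apart from phosphofructokinase, with a second isozyme gene for aldolase (ALDOC) and for enolase (ENO2). Panc 10.05 is an established human line of pancreatic ductal adenocarcinoma. Bulk RNA was extracted with TRIzol and sequenced on an Illumina NextSeq from 4 libraries of control cells and 4 libraries of cells labelled as overexpressing ELAPOR1, a transmembrane protein of the endosomal and lysosomal system formerly named KIAA1324. Both groups are the same line, and the labels name no drug, time point or other allele. The vector and promoter of the transgene, what the control cells received, and whether the transgene cells were 1 clone or a pool were not given in the sources used here. Nothing there says that the 4 libraries of a group came from separate cultures, so p-values measure the spread between these libraries, which may be technical.

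Glycolysis splits glucose into pyruvate and yields ATP and NADH without oxygen. The upper steps spend ATP to make a doubly phosphorylated hexose that aldolase cleaves into a pair of three-carbon sugars, and the lower steps, from glyceraldehyde 3-phosphate dehydrogenase to pyruvate kinase, recover ATP. Tumour cells often make lactate from the pyruvate even when oxygen is present, and pancreatic ductal adenocarcinoma is known for high glucose use. Several glycolytic genes are textbook targets of HIF1A and MYC, and some enzymes exist as tissue isozymes encoded by separate genes, such as the brain-type aldolase C and the neuronal enolase ENO2.

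Estimated counts summed to 16558600 to 18128757 in the control libraries and to 13765509 to 17258166 in the ELAPOR1 libraries. ELAPOR1 itself had 1, 1, 4 and 4 counts in the control libraries 1 to 4 and 7006, 6422, 5910 and 7368 counts in the ELAPOR1 libraries, so all 8 libraries matched their labels. The 7 ductal epithelial markers examined (KRT7, KRT8, KRT18, KRT19, EPCAM, CDH1 and MUC1) were all measured, with summed levels of 11949 to 13155 CPM (counts per 1000000 counts) in control libraries and 11339 to 11653 CPM in ELAPOR1 libraries. Of 16 markers of leukocytes, endothelium, fibroblasts, neuroendocrine cells and acinar cells, 10 had 0 counts in every library, including the neuroendocrine CHGA, CHGB, NCAM1 and INSM1, and the 16 together summed to 3.44 to 5.35 CPM in control and 4.22 to 4.63 CPM in ELAPOR1 libraries.

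With the members' changes already known, the DNA before their RefSeq transcript starts was read from the RefSeq promoter table (GRCh38.p14). That table held 13 start windows for the 10 genes. These starts differ from the outermost GENCODE 29 starts given with each gene below, and 12 of 13 windows lie wholly inside the GENCODE span of their gene. Annotated exons cover 5 of the 13 windows completely, and DNA before the outermost GENCODE starts was otherwise not searched. Each window is the 250 bases before a RefSeq start, and it was searched on both strands for ACGTG and GCGTG, the core letters of hypoxia response elements. Either core was present in 10 of 13 member windows (76.9%), belonging to 8 of 10 members, and in 43.2% of all 35116 windows in the table. ALDOC had 5 matches, PGK1 3, GAPDH 2, ENO1 2, and GPI and ENO2 1 each. ALDOA had 1 or 2 in each of its 3 windows, and TPI1 had 2 at its second start and 0 at its first. PGAM1 and PKM had no match. Cores were present in members that rose, in both members that fell and in GAPDH. They were absent from the windows of PGAM1 and PKM, which rose. Any part of the cores in the direction of change was not tested. The member windows were 53.2% to 74.0% G and C, against a median of 58% over all windows, and the part of base composition in the share of windows with a core was not tested. An excess was not particular to these cores. The G- and C-rich sequence GGGCGG, searched in the same windows, was present in at least 1 window of every member except GPI. It was in 42.6% of all windows. TATAAA was in no member window and in 10.7% of all windows. A match is a description of letters, and binding was not measured. The stretches below are those of at least 100 bases that no annotated exon covers, all on the plus strand, at chr16:30065510-30065672 for ALDOA, chr12:6867855-6868099 for TPI1, chr12:6535014-6535263 for GAPDH, chrX:78103998-78104173 for PGK1 and chr10:97427568-97427817 for PGAM1. They are shown to set the densest of these stretches (PGK1) beside one without a core (PGAM1), and capitals mark the cores as read on either strand. In GAPDH the run CACGTG holds ACGTG on each strand and so counts as 2 matches. ALDOC and the ALDOA window at chr16:30064247-30064496 each hold 1 such run, counted in the same way.
ALDOA: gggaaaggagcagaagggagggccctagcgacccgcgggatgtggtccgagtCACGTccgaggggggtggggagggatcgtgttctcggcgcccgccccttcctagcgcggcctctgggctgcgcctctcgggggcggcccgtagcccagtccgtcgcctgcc
TPI1: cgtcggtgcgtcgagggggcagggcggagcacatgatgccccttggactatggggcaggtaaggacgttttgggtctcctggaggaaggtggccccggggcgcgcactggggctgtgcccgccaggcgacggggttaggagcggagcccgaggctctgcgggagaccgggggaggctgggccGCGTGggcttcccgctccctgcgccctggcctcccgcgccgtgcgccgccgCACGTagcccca
GAPDH: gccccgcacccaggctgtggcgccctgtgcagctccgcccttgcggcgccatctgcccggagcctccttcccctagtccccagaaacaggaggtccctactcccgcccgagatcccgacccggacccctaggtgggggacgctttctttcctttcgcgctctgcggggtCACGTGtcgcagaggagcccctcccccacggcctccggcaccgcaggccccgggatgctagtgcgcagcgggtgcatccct
PGK1: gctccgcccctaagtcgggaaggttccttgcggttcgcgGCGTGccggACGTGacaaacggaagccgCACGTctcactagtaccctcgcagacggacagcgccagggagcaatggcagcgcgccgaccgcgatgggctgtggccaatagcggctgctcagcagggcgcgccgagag
PGAM1: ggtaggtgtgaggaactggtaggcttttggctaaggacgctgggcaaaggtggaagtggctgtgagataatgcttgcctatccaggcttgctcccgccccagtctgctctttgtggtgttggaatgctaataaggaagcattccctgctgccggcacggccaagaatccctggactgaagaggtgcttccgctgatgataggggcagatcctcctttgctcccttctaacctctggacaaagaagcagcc

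Across all 13860 genes with enough counts to test, edgeR's quasi-likelihood test with Benjamini-Hochberg adjustment (adjusted p under 0.05, the rule for every call here) called 44.7% different between the groups, 22.6% higher with ELAPOR1 and 22.1% lower. All 10 members were tested, 9 of 10 were called, 7 rose and 2 fell. For 9 of 10 members every library of one group lay outside the CPM range of the other, against 39.2% of all tested genes. The median log2 fold change of the 10 was 0.21, beside 0.00087 for all tested genes. The changes were small: the 7 rises were 1.10- to 1.36-fold, and 0 of 10 members passed a test against a 1.5-fold change, which 1.55% of all genes passed. At an adjusted p under 0.01, 8 of 10 members were called, against 33.8% of all genes. The shares over all genes mix count levels, while 8 of the 10 members are abundant. Genes of like count level were not compared. Replicates lay close together, with coefficients of variation of 0.369% to 4.91% within a group for the 8 abundant members. In these bulk libraries, a change in RNA per cell and a change in the share of cells carrying that RNA cannot be told apart.

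**Figure D1:**
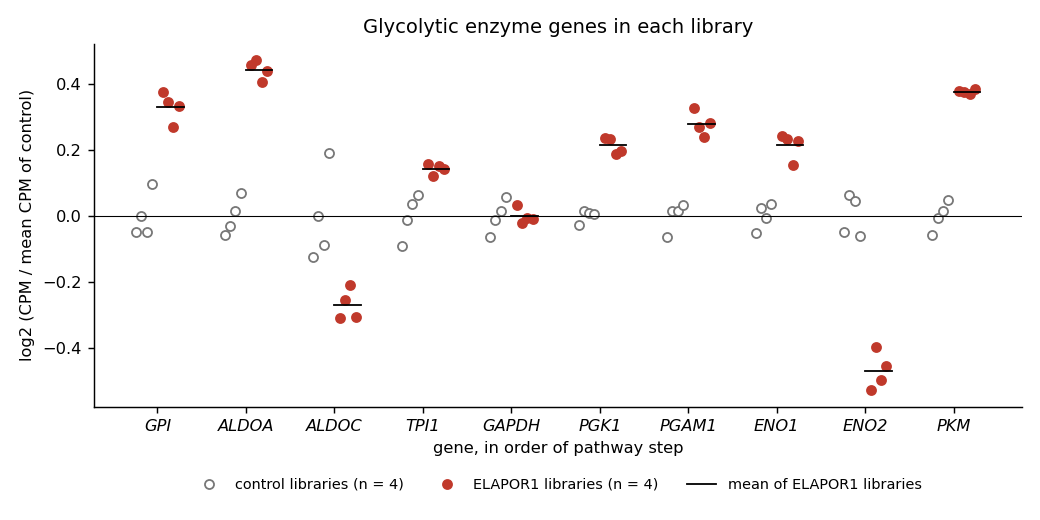
Each point is 1 library, with the vertical axis giving log2 of its CPM over the mean CPM of the 4 control libraries, and genes in pathway order along the horizontal axis. Open circles are control, filled circles are ELAPOR1, and bars are the mean of the ELAPOR1 libraries; the groups overlap for GAPDH alone, 7 genes lie above the controls, and ALDOC and ENO2 lie below.

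GPI (chromosome 19, 34359480 to 34402413, plus strand, GENCODE 29 on GRCh38) encodes glucose-6-phosphate isomerase, which converts glucose 6-phosphate to fructose 6-phosphate. It measured 196, 203, 196 and 217 CPM in control libraries 1 to 4 and 264, 258, 245 and 256 CPM in the ELAPOR1 libraries. The lowest ELAPOR1 library thus stood above the highest control library. GPI rose by 0.33 on the log2 scale (SE 0.0343, adjusted p = 8.1e-10), or 1.26-fold.

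ALDOA (chromosome 16, 30064164 to 30070457, plus strand) encodes the main aldolase, which cleaves fructose 1,6-bisphosphate. Its promoter stretch above carries a single core. Control libraries measured 464, 473, 487 and 506 CPM, and ELAPOR1 libraries 663, 669, 639 and 654 CPM. The rise of 0.44 on the log2 scale (SE 0.0295, adjusted p = 2.2e-14), or 1.36-fold, was the largest among the 10 members, and the groups were far apart relative to their SDs of 18.6 and 13.1 CPM (n = 4 each).

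ALDOC (chromosome 17, 28573115 to 28577264, minus strand), the gene for the brain-type aldolase, was present at a far lower level. Its 4 control libraries measured 9.70, 10.6, 9.95 and 12.1 CPM and its 4 ELAPOR1 libraries 8.53, 8.85, 9.14 and 8.54 CPM. The groups did not overlap, and control replicate 4 was the highest of the 8. The fall of 0.27 on the log2 scale (SE 0.102, adjusted p = 0.03), or 1.21-fold, rested on 127 to 198 counts per library and was the weakest call among the members. The adjusted p was 0.14 without control replicate 4 (log2 fold change -0.20), 0.054 without control replicate 2, 0.069 without ELAPOR1 replicate 1 and 0.070 without ELAPOR1 replicate 4. It was 0.065 by DESeq2 and 0.053 with trends over GC content and transcript length removed.

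TPI1 (chromosome 12, 6867119 to 6870948, plus strand) encodes triosephosphate isomerase, which interconverts the pair of three-carbon sugars that aldolase makes. It measured 608, 642, 664 and 677 CPM in control libraries and 723, 705, 719 and 714 CPM with ELAPOR1. The control libraries were spread more widely (SD 30.1 CPM) than the ELAPOR1 libraries (SD 7.66 CPM), without overlap. Its rise of 0.14 on the log2 scale (SE 0.0297, adjusted p = 1.7e-04) was the smallest of the 7.

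GAPDH (chromosome 12, 6533927 to 6538374, plus strand), glyceraldehyde 3-phosphate dehydrogenase, carries out the NADH-forming step and is widely used as a reference transcript. Control libraries measured 4206, 4364, 4442 and 4579.6 CPM, and ELAPOR1 libraries 4499, 4333, 4382 and 4366 CPM. The ELAPOR1 values all fell inside the control range, so GAPDH was the only member whose groups overlapped and the only one not called (log2 fold change -0.00093, SE 0.0263, adjusted p = 0.98). With total counts in place of TMM scaling its estimate was 0.02 (adjusted p = 0.54). With trends over GC content and transcript length removed, an alternative added after seeing the data, the GAPDH estimate was 0.056 with an adjusted p of 0.0041. Ratios to GAPDH inside each library gave 7 members higher and 2 lower without overlap. For these 9 ratios a two-sided exact permutation test gave p = 0.0286 each, the smallest value that 4 against 4 libraries allow, and 0.0286 after adjustment over the 9.

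PGK1 (chromosome X, 77910739 to 78129296, plus strand) encodes phosphoglycerate kinase, the first ATP-forming step. It measured 361, 372, 369.8 and 369 CPM in control libraries and 433, 433, 419 and 422 CPM with ELAPOR1. Control libraries averaged 368 ± 4.74 CPM and ELAPOR1 libraries 427 ± 7.17 CPM (SD, n = 4), without overlap, and the log2 fold change was 0.21 (SE 0.0281, adjusted p = 1.1e-07). PGAM1 (chromosome 10, 97426160 to 97433441, plus strand), phosphoglycerate mutase, moves the phosphate group to the second carbon. Its libraries read 421, 444, 444 and 449.5 CPM in control and 552, 529.9, 519 and 535 CPM with ELAPOR1. PGAM1 rose by 0.28 on the log2 scale (SE 0.0293, adjusted p = 1e-09), and every ELAPOR1 library stood above every control library.

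ENO1 (chromosome 1, 8861000 to 8879250, minus strand) encodes alpha-enolase, which makes phosphoenolpyruvate. Control libraries measured 1336, 1406, 1378 and 1418 CPM, and ELAPOR1 libraries 1638, 1629, 1541 and 1620.4 CPM. ENO1 rose by 0.22 on the log2 scale (SE 0.0272, adjusted p = 5.2e-08), and ELAPOR1 replicate 3 was the lowest of its group while still above every control. ENO2 (chromosome 12, 6913745 to 6923698, plus strand), the neuronal enolase, moved the other way. It measured 17.8, 19.2, 19.0 and 17.7 CPM in control and 12.8, 14.0, 13.0 and 13.4 CPM with ELAPOR1. The fall of 0.47 on the log2 scale (SE 0.0794, adjusted p = 9.2e-06), or 1.38-fold, was the largest change in size among the 10 members. Neuroendocrine markers were at or near 0: CHGA, CHGB, NCAM1 and INSM1 were at 0, and the 5 neuroendocrine markers together summed to 0.525 to 1.19 CPM in control and 0.869 to 1.23 CPM in ELAPOR1 libraries.

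PKM (chromosome 15, 72199029 to 72231822, minus strand) encodes the muscle-type pyruvate kinase, which makes pyruvate and ATP, in alternative M1 and M2 splice forms. It measured 2026, 2099, 2129 and 2181 CPM in control libraries and 2743, 2736, 2728 and 2752 CPM with ELAPOR1. The coefficient of variation was 0.369% among ELAPOR1 libraries and 3.07% among control libraries, and the groups were well apart. PKM rose by 0.38 on the log2 scale (SE 0.0258, adjusted p = 4.4e-14), or 1.30-fold. Counts per gene do not separate the M1 and M2 forms.

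Per kilobase of annotated transcript, GAPDH was the most abundant of the 10, at 3262 CPM per kilobase in control and 3260.3 with ELAPOR1, and ranked 7 among the 11993 protein-coding genes tested. PKM followed at 917 and 1192, ENO1 at 777 and 902, TPI1 at 526 and 581, ALDOA at 311 and 423, and PGAM1 at 240.2 and 292. PGK1 (75.3 and 87.3) and GPI (65.1 and 81.9) formed a lower tier. The minor isozymes ALDOC (5.71 and 4.73) and ENO2 (7.23 and 5.22) were lowest, with ranks of 8166 and 7722. The order of the levels was therefore the same in both groups. Control replicate 1 was the lowest control library for 9 of 10 members and control replicate 4 the highest for 8 of 10, while among ELAPOR1 libraries replicate 3 was lowest and replicate 1 highest for 6 each.

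The balance between isozymes was measured inside each library, where scaling has no part. ALDOC counts per ALDOA counts were 2.09%, 2.23%, 2.04% and 2.38% in control libraries 1 to 4 and 1.29%, 1.32%, 1.43% and 1.30% in ELAPOR1 libraries. The ratio was 1.64-fold lower with ELAPOR1 (log2 difference -0.71). ENO2 counts per ENO1 counts were 1.33%, 1.37%, 1.38% and 1.25% in control and 0.780%, 0.858%, 0.846% and 0.83% with ELAPOR1. That ratio was 1.61-fold lower (log2 difference -0.69). For each ratio the groups did not overlap, and p was 0.0286 in a two-sided exact permutation test (0.0286 adjusted over the 2 ratios). The 10 genes together took 0.960%, 0.991%, 1.01% and 1.03% of all counts in control libraries and 1.16%, 1.14%, 1.13% and 1.14% in ELAPOR1 libraries. The mean share went from 0.998 ± 0.0305% to 1.14 ± 0.0121% (SD, n = 4), a difference of 0.145 percentage points (p = 0.0286, the same exact test). With TMM-scaled counts the difference was 0.129 percentage points. The members did not add to it evenly: PKM, with mean CPM of 2109 in control and 2740 with ELAPOR1, added the most. GAPDH, at 4398 and 4395 CPM, did not rise.

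**Figure D2:**
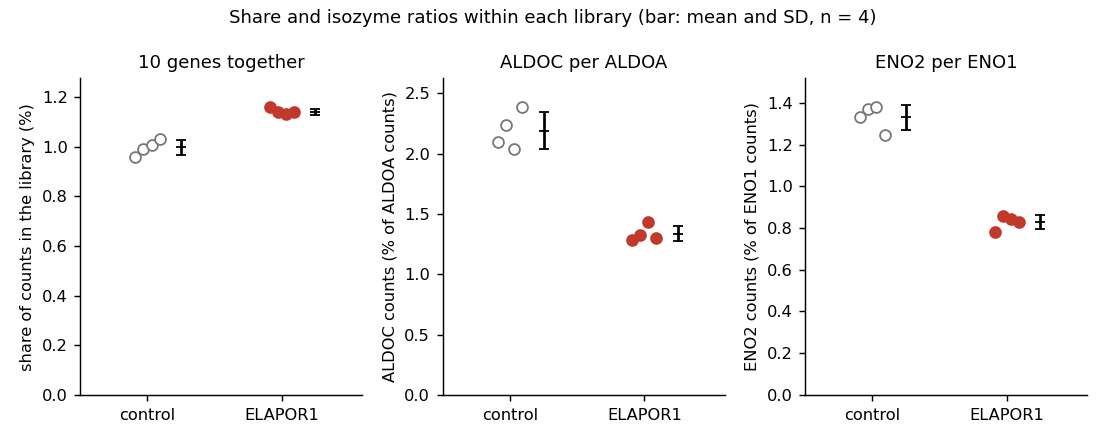
Points are single libraries (open, control; filled, ELAPOR1), with mean and SD beside them, and all vertical axes start at 0. Left, the 10 genes as a percentage of all counts, which ranges from 0.960% to 1.03% in control and from 1.13% to 1.16% with ELAPOR1; middle and right, ALDOC as a percentage of ALDOA counts and ENO2 as a percentage of ENO1 counts, both lower in every ELAPOR1 library.

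Other isozymes of the lower steps were mostly at or near 0. GAPDHS (the sperm form), PGK2 (the testis form) and ENO4 had 0 counts in every library, which allows at most 0.165 to 0.218 CPM per library (3 counts; counting error only). PKLR, PGAM2 and PGAM4 were too low to test, with at most 13 counts in a library. ENO3, the muscle enolase, and BPGM, which makes 2,3-bisphosphoglycerate, had enough counts to test, and neither was called (log2 fold changes -0.05 and 0.01, adjusted p = 0.89 and 0.91).

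Neighbouring steps were examined from lists of glucose entry, control and lactate genes, gluconeogenesis genes, branch pathways, splicing factors of PKM, and transcription factors. The shares to set beside the counts of each list are those of all tested genes, 22.6% higher and 22.1% lower. Of 24 genes for entry, control and lactate, 18 were tested, 7 rose and 4 fell (median log2 fold change 0.11). The largest called rise was PFKFB3, which makes the allosteric activator of phosphofructokinase (19.3 ± 1.20 to 26.1 ± 1.99 CPM, SD, n = 4; log2 fold change 0.44, adjusted p = 7e-06). The largest called fall at a mean of 5 CPM or more was PFKM, a phosphofructokinase gene (136 ± 5.12 to 117 ± 2.16 CPM; log2 fold change -0.22, adjusted p = 7.7e-06).

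The steps flanking the members are named here for their place in the pathway, after their values were seen. Glucose transporter SLC2A1 (0.22) and hexokinases HK1 (0.36) and HK2 (0.21) rose on the log2 scale. Phosphofructokinase genes did not follow: PFKP fell by 0.22 as PFKM did, and PFKL was at -0.05 (adjusted p = 0.39). LDHA, which makes lactate from pyruvate, measured 804, 839, 838 and 841 CPM in control and 1066, 1059, 1069 and 1082 CPM with ELAPOR1, without overlap. Its log2 fold change of 0.36 (adjusted p = 1.6e-13) was close in size to that of PKM. LDHB, the other main lactate dehydrogenase gene, had 0 counts in all 8 libraries and was not tested. The lactate transporter genes SLC16A1, SLC16A3 and SLC16A7 were not called (adjusted p = 0.082, 0.1 and 0.6).

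Of 8 gluconeogenesis genes, 5 were tested, 1 rose and 3 fell (median -0.41). FBP1, fructose-1,6-bisphosphatase, which opposes phosphofructokinase, fell by 1.07 on the log2 scale, from 12.7 ± 1.08 to 6.04 ± 0.713 CPM (adjusted p = 6.5e-10). G6PC3, a ubiquitous glucose-6-phosphatase, rose by 0.57 (adjusted p = 2.7e-09). Branch pathways, which draw on glycolytic intermediates, were evenly split: of 24 genes 22 were tested, 9 rose and 9 fell (median -0.03). At a mean of 5 CPM or more, the largest called rise was GPD1L, a relative of cytosolic glycerol phosphate dehydrogenase (0.62, adjusted p = 1.1e-04). The largest called fall at that level was PGLS of the pentose phosphate pathway, by 0.66 (adjusted p = 9.6e-12). Below that level, PHGDH of serine synthesis fell by more, 1.75, from 6.69 ± 0.359 to 1.96 ± 0.252 CPM (adjusted p = 6.4e-11).

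Among 5 splicing factors known to act on PKM exon choice, all were tested, 4 rose and 1 fell (median 0.13). PTBP1 rose by 0.35 (adjusted p = 1.3e-12) and HNRNPA1 fell by 0.31 (adjusted p = 5.1e-12), both being known to favour the M2 form. Of 10 transcription factors tied to glycolytic genes, 2 rose and 4 fell (median -0.01). HIF1A measured 233, 228, 207 and 208 CPM in control and 296, 285, 300.0 and 302 CPM with ELAPOR1, and rose by 0.43 (adjusted p = 8.7e-12). ESRRA, an orphan nuclear receptor of oxidative metabolism, fell by 0.39 (adjusted p = 1.8e-08). MLXIPL, at a mean below 5 CPM, was called lower by more, at -0.74 (adjusted p = 0.0073). MYC was at -0.03 and was not called (adjusted p = 0.58). EPAS1 was at 0.006 and was not called (adjusted p = 0.93). ARNT was called lower, at -0.14 (adjusted p = 0.037), with overlapping groups. HIF1A protein is controlled mainly after transcription, and protein was not measured.

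**Figure D3:**
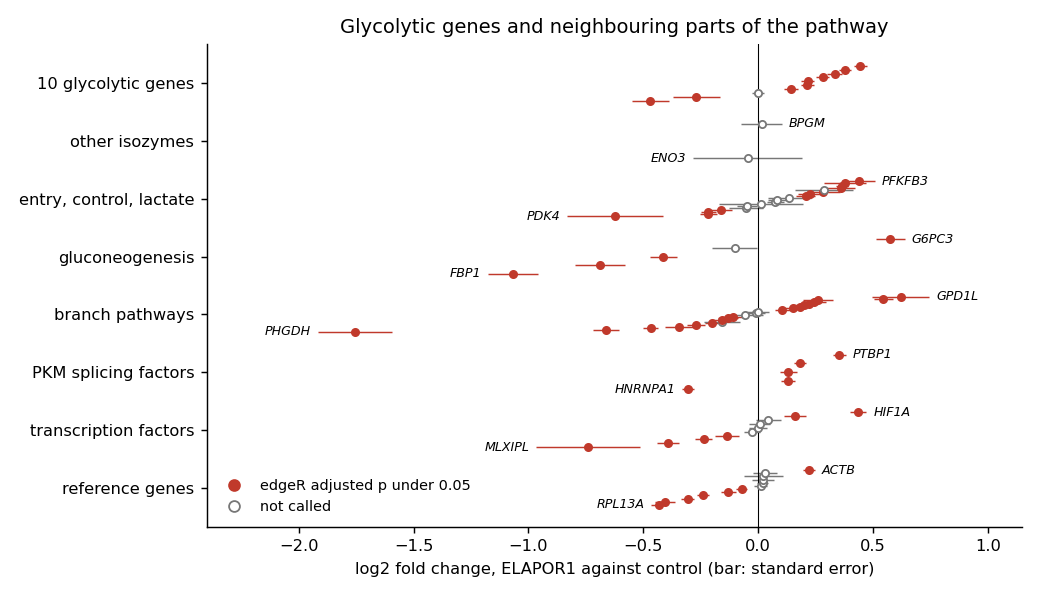
Each point is 1 tested gene, placed by its log2 fold change (ELAPOR1 against control) with a bar of 1 standard error, and filled where edgeR's adjusted p is under 0.05. Rows are the 10 glycolytic genes and the 7 other lists, of which the 10 have a median of 0.21 and gluconeogenesis a median of -0.41; the labelled genes are the extremes of each list at any level.

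Because GAPDH serves as a reference transcript, 12 commonly used reference genes other than GAPDH were read in the same way. All were tested, 1 rose and 6 fell (median -0.03), against 22.6% and 22.1% of all tested genes. ACTB rose by 0.22 (3954 ± 117 to 4605 ± 32.7 CPM, adjusted p = 7.3e-09), the same size as ENO1, and RPL13A fell by 0.43 (2019 ± 110.4 to 1496 ± 40.1 CPM, adjusted p = 4.7e-12). Over these 7 lists, 51 of 74 tested genes were called, read against the 44.7% of all genes.

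Pseudogenes and overlapping genes can share reads with a member. GAPDH had 62 annotated pseudogene rows, of which 6 held any count, together 0.0370% of the GAPDH counts (GAPDHP62 the most). PGAM1 had 13, at 0.881% (PGAM1P8 the most), and TPI1 4, at 0.259% (TPI1P2 the most); the rest were at 0.00773% or less. Adding pseudogene counts to the members changed no call. Among overlapping genes, AC005726.1 lies on the same strand as ALDOC and held 23.3% as many counts, with a log2 fold change of -0.38 that was not called (adjusted p = 0.16). LRRC23 overlaps ENO2 on the same strand, at 16.2% as many counts, and was called lower (log2 fold change -0.53, adjusted p = 0.038) with overlapping groups. ATP7A overlaps PGK1 (0.14, adjusted p = 0.18), and SPSB2 overlaps TPI1 on the opposite strand (-0.21, adjusted p = 0.072). Whether counting used strand is not given in the sources used here, so reads of such pairs may be split uncertainly. In an alternative added after seeing the data, counts of overlapping same-strand coding genes with clone names, such as AC005726.1, were added to the member. ALDOC was then at -0.29 (edgeR adjusted p = 0.01) and the ALDOC to ALDOA log2 ratio differed by -0.73. LRRC23 was not added to ENO2.

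Members close together on chromosome 12 moved differently. TPI1 and ENO2 start 46.6 kb apart, and GAPDH lies 333 kb from TPI1, and TPI1 rose, ENO2 fell and GAPDH was not called. Over all tested genes 22.6% rose and 22.1% fell, the shares to set beside each count below. Within 500 kb of TPI1, 42 other tested genes included 8 that rose and 15 that fell (median -0.18). TPI1 stood 0.32 above the median of its surroundings. Around ENO2, 8 of 39 rose and 13 fell (median -0.17), and 5 lay below ENO2. Apart from TPI1 itself, the genes around ENO2 are all among those around TPI1, which include ENO2. The sets are therefore not separate observations, and both hold GAPDH. Around ALDOA, 20 of 42 rose and 4 fell (median 0.17), with 8 above ALDOA, against 22.6% of all genes that rose. Around PKM 0 of 9 rose and 2 fell, and around PGAM1 1 of 16 rose and 5 fell. Around ENO1 0 of 4 rose and 1 fell, around PGK1 1 of 5 rose and 0 fell, and around GPI 2 of 9 rose and 0 fell. These members themselves rose, and most of these sets are small. Around ALDOC 10 of 26 rose and 2 fell, while ALDOC fell. Their part in the members' values was not tested.

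**Figure D4:**
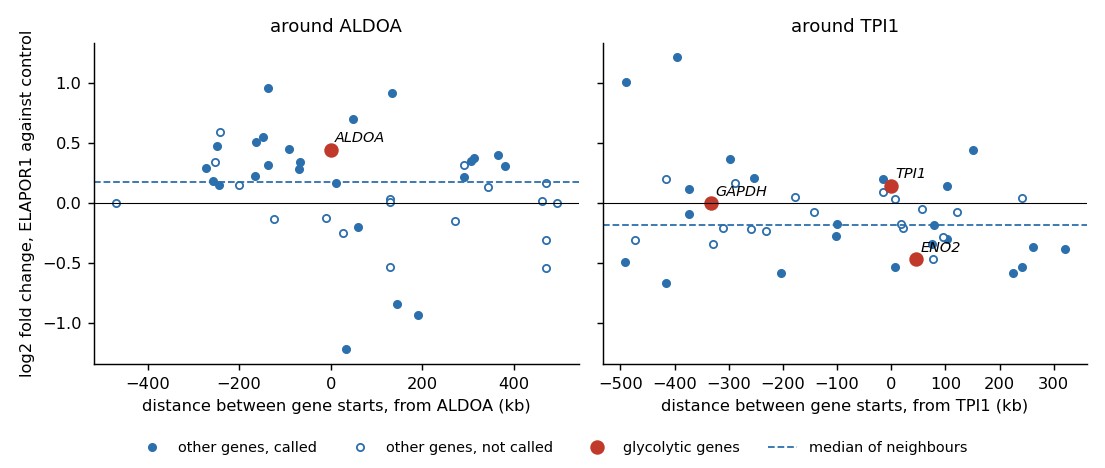
Each point is 1 tested gene within 500 kb, with distance between gene starts in kb along the horizontal axis and log2 fold change (ELAPOR1 against control) on the vertical axis; filled points were called, and large points are the glycolytic genes. The dashed median of the neighbours is 0.17 around ALDOA and -0.18 around TPI1, where TPI1 and ENO2 lie near each other on opposite sides of 0.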

How the data were processed

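TRIzol RNA was checked on a Bioanalyzer and sequenced on a NextSeq, per the labels. The submitters' processing notes name cutadapt, STAR, RSEM and DESeq2 without versions, and the build hg38. The authors deposited 1 table of expected counts, the read totals per gene that RSEM estimates, for 58870 genes in 8 libraries. Of nonzero values 15.0% were not whole, and all were rounded for the count tests. Gene positions and lengths came from GENCODE 29 (58597 IDs matched). Lengths per kilobase are medians over coding transcripts of its basic set, or over those marked as principal where there were any.

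Genes were filtered with filterByExpr (minimum count 10), scaled by TMM (factors 0.989 to 1.01) and tested in R 4.3.3 with edgeR 4.0.16 (robust quasi-likelihood, 13860 genes, Benjamini-Hochberg). CPM are TMM-scaled counts per 1000000, and each SD is over 4 libraries. Ratios and shares used two-sided exact permutation over libraries, enumerated in Python 3.11.15 with numpy 2.4.6. DESeq2 1.42.0 and limma 3.58.1 were alternatives. The code was tested on simulated counts. Named were all members, the largest called rise and fall of each list at a mean of at least 5 CPM, the top pseudogene per member, and ELAPOR1. MYC, EPAS1, ARNT, MLXIPL, PHGDH and the genes of flanking steps were named outside this rule. Members and lists were chosen with earlier results of these data known.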

Additional observations from a re-analysis of the deposited data

How the results depend on the processing

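The number of members called stayed at 8 or 9 under the alternatives run other than the test against a 1.5-fold change, where it was 0 (2 for genes of the other lists). Leaving out 1 library at a time gave 8 or 9 members and 47 to 51 genes of the other lists. The member whose call was lost in these was ALDOC: beside the values given with it, its adjusted p was 0.05 with no filter on low counts. With GC and length trends removed the 9 called included GAPDH in place of ALDOC. Of 220 member values under alternatives, 202 stayed on the same side of the threshold, 17 kept their direction but were no longer called, and 1, GAPDH at 0.056 with GC and length trends removed (chosen after seeing the data), changed sign and was called; the cause was not tested. The other GAPDH estimates were not called and lay on both sides of 0, from -0.028 to 0.021. Replicate numbers did not pair the samples, by label or by correlation of deviations (-0.083 to 0.053). With the replicate number as a block, 9 members and 49 other genes were called. As a replicate block of within-number differences, the share (0.145), the ALDOC to ALDOA ratio (-0.71) and the ENO2 to ENO1 ratio (-0.69) kept their values, but 4 pairs allow no p below 0.125. No scaling moved the median of all genes by more than 0.021. ALDOC and ENO2 are limited by depth, at 127 to 326 counts per library.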
